A study of Mus musculus with 6 samples.

Results

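The netrins, the repulsive guidance molecules (RGMs) and their receptors were followed here as 8 genes of axon guidance, taken by name from a table of 20173 genes. The set holds the ligands Ntn1, Ntn4, Rgma and Rgmb, the receptors Dcc and Neo1 that are shared or related between the ligand families, and the netrin receptors Unc5b and Unc5c. All 8 names were found, each on 1 row. The counts come from 6 libraries of total RNA, 3 from Slit2fl/fl mice (labelled SLIT2f/f) and 3 from Slit2th mice (labelled SLIT2-knockout), which carry the same floxed Slit2 alleles together with Cre recombinase driven by the tyrosine hydroxylase (Th) promoter. By the methods of the study, sympathetic chains of 3-week-old male mice were taken into culture for 4 to 5 days, although the isolation steps they refer to name dorsal root neurons. The labels give the material as sympathetic ganglion and the cell type as neuron, and do not say how many mice stand behind a library or whether libraries are separate cultures, so p-values measure the spread between these libraries, which may be technical.

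Netrins are secreted relatives of laminins. Netrin-1 attracts axons through Dcc and repels them when a receptor of the Unc5 family takes part, and netrin-1 made by arterial smooth muscle is known to guide sympathetic axons onto arteries. Neogenin, the product of Neo1, is the closest relative of Dcc and binds netrins as well as the RGMs. RGMs are glycolipid-anchored membrane proteins that can make axons retract through neogenin and the GTPase Rhoa, and that also act as co-receptors for bone morphogenetic proteins (BMPs). Whether deletion of an axonal repellent is accompanied by altered transcript levels of these other guidance systems is the question that the comparison of the genotypes addresses.

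The libraries held between 1255939 and 3155406 counted reads. Levels are given as CPM, the usual scaling of read counts to library size, here after normalization between libraries by the TMM method, and 3 reads, taken as the floor of detection, correspond to 0.958 to 2.64 CPM depending on the library, a floor that covers counting error only. Replicate 1 of each genotype stood apart from the rest: its correlation with the other libraries, across genes, was 0.788 to 0.874, against 0.916 to 0.965 among the other 4 libraries. Results are therefore also given without it. The targeted gene followed the labels: Slit2 was at 44.4, 55.0 and 43.7 CPM for Slit2fl/fl against 15, 11.4 and 15.2 CPM for Slit2th, without overlap (two-sided exact permutation test, p = 0.10, adjusted p = 0.422 by edgeR). Among 13 listed sympathetic neuron markers, 11 were in the table, Th (whose promoter drives Cre) and Chga had no read in any library, and the summed level was 332.7 CPM in Slit2fl/fl replicate 1 and 93.3 to 135.7 CPM in the other libraries. Nearly all of it was the general neuronal genes Tubb3 (74.8 to 289.3 CPM) and Stmn2 (16.3 to 43.1 CPM). Each of the other 9 markers had 0 to 3 reads per library. Among these 9 were Phox2a, Slc6a2 and Npy, and also the more general neuronal genes Snap25 and Prph. The 9 markers of Schwann cells and satellite glia reported here summed to 4295 to 5043 CPM. The levels below are those of whole cultures, in which fewer cells of a type and less RNA per cell cannot be told apart.

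Rgmb was the member with the most reads, and Dcc and Unc5b were the members with the fewest. Per kilobase of merged exon, Rgmb stood at 11.6 CPM on average over the 6 libraries and was above 85.6% of the genes in the table. Ntn1 and Neo1 followed at 1.56 and 1.45 CPM per kilobase, close to the middle of all genes. Ntn4 (0.557), Rgma (0.403), Unc5c (0.151), Unc5b (0.0787) and Dcc (0.0579 CPM per kilobase) came next, in this order. Only the step from Rgmb to Ntn1, 7.44-fold on average, kept the ranges over the 6 libraries apart. For each other pair of neighbours in this order the ranges overlapped, although Neo1 was above Ntn4, and Rgma above Unc5c, within each of the 6 libraries. Ntn1 was above Neo1 in 4 of the 6.

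**Figure D1:**
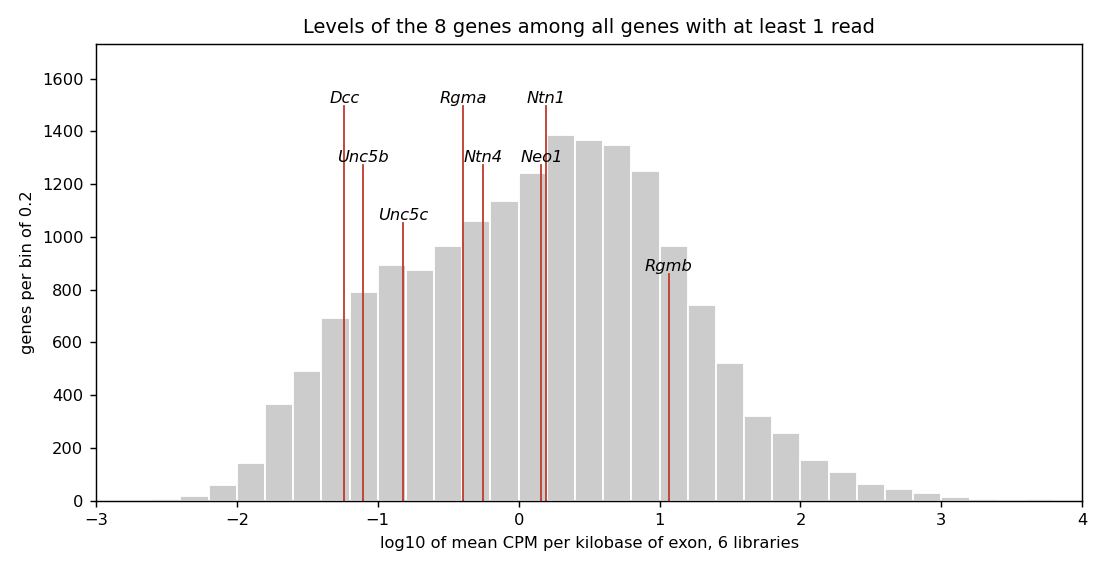
Levels of the 8 genes (red lines) within the distribution of all genes with at least 1 read (grey bars, genes per bin of 0.2), on a log10 axis of mean CPM per kilobase of merged exon over 6 libraries. Rgmb lies at 11.6 CPM per kilobase on the right slope, Ntn1 and Neo1 lie near the peak, and Unc5c, Unc5b and Dcc lie on the left.

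The receptors with the most and with the fewest reads are shown by their promoters, so that their start regions can be set beside their levels. Each sequence covers 250 bases before to 50 bases after a RefSeq transcription start (GRCm38.p6, minus strand for both genes, chr9:59036392-59036691 for Neo1 and chr10:60831532-60831831 for Unc5b), and CpG dinucleotides are in capitals.
Neo1: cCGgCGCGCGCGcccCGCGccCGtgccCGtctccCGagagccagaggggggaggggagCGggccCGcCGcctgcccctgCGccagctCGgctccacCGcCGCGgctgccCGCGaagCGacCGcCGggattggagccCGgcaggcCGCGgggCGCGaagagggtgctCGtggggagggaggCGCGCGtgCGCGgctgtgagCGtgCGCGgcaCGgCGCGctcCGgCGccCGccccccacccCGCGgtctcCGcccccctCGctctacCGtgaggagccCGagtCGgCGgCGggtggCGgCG
Unc5b: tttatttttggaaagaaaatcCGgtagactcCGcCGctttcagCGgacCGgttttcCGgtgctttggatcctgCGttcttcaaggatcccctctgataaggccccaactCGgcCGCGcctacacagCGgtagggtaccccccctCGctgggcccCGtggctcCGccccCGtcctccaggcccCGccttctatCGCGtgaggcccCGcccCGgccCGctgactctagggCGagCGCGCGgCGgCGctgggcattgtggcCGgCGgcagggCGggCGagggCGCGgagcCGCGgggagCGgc
The Neo1 window holds 54 CpGs and the Unc5b window 36, where the median over 32851 promoter windows of the same length is 7. A count of at least 54 was found in 0.347% of these windows, and a count of at least 36 in 6.23%. Both windows are thus rich in CpG, while the transcript of Neo1 had 148 reads over the 6 libraries and that of Unc5b had 8. Windows were at hand for 5 of the 8 members. The others held 31 CpGs for Ntn4, 24 for Unc5c and 18, 30 and 24 for the 3 starts of Rgmb, so CpG number did not follow the order of the levels among these 5 genes.

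Among the ligands, Ntn1 (ENSMUSG00000020902, minus strand of chromosome 11 of GRCm38, 68209364 to 68400823) encodes netrin-1. In the order of replicates 1, 2 and 3, which holds for all values listed this way, 10, 16 and 11 reads were counted for Slit2fl/fl against 11, 31 and 26 for Slit2th. Normalized, this was 3.19, 10.3 and 6.24 CPM for Slit2fl/fl against 9.68, 14.8 and 14.6 CPM for Slit2th. Slit2th replicates 2 and 3 were above every Slit2fl/fl library, whereas Slit2th replicate 1 lay just under Slit2fl/fl replicate 2, so the groups overlapped, which they did not with RLE size factors. Slit2fl/fl averaged 6.60 ± 3.59 CPM and Slit2th 13.0 ± 2.90 CPM (SD, n = 3 each). The log2 fold change was 1.02 (standard error 0.55, 95% interval -0.21 to 2.26), and edgeR's quasi-likelihood test gave an unadjusted p = 0.0929 and, once adjusted for the number of genes tested, an adjusted p = 0.503. Without Slit2fl/fl replicate 1 the value was 0.66. By an exact permutation of the 6 libraries (two-sided, log2 CPM) p was 0.20, and this design cannot give less than 0.10. The difference of Ntn1 did not pass the test, and its interval runs from 0.866-fold to 4.78-fold.

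Ntn4 (ENSMUSG00000020019, plus strand of chromosome 10, 93640681 to 93747207) encodes netrin-4, a netrin that binds laminin and interferes with basement membrane assembly. It had 2, 5 and 1 reads in Slit2fl/fl and 1, 8 and 6 reads in Slit2th, or 0.639, 3.23 and 0.568 CPM against 0.880, 3.81 and 3.38 CPM. In 3 of the 6 libraries, Slit2fl/fl replicate 2 and Slit2th replicates 2 and 3, it was above the floor of 3 reads. These are also the 3 libraries in which Ntn1 was highest. The log2 fold change of 1.0 (standard error 0.92, 95% interval -1.07 to 3.08) had an adjusted p of 0.663 by edgeR's test. The interval spans 0.475-fold to 8.45-fold, so at 23 reads in all a difference in either direction was not detectable. Without any one of these 3 libraries Ntn4 no longer passed the filter for the test, and without Slit2fl/fl replicate 1 or 3 the value was 0.60 or 0.62.

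Rgmb (ENSMUSG00000048027, minus strand of chromosome 17, 15803188 to 15831039, 6 merged exons) encodes RGMb, also called Dragon, a co-receptor of BMP signaling first found in sensory neurons. It had 270, 116 and 177 reads for Slit2fl/fl against 130, 162 and 145 for Slit2th, or 86.2, 75.1 and 100.5 CPM against 114.4, 77.1 and 81.7 CPM. The highest library was Slit2th replicate 1 and the lowest was Slit2fl/fl replicate 2, with the others interleaved. The means of 87.3 ± 12.7 and 91.1 ± 20.3 CPM (SD, n = 3 each) differed by less than the spread within either genotype. The log2 fold change was 0.06 (standard error 0.34, 95% interval -0.70 to 0.82, adjusted p = 0.95 by edgeR's test), an interval from 0.617-fold to 1.76-fold. The sign was negative without replicate 1 of both groups (-0.16). Of the 6 tested genes Rgmb has the narrowest interval, and it does not reach the 0.291-fold level of Slit2 in the same libraries.

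Rgma (ENSMUSG00000070509, plus strand of chromosome 7, 73375509 to 73419899) encodes the founding RGM, named for its repulsion of retinal axons. Reads numbered 5, 5 and 4 for Slit2fl/fl against 2, 6 and 3 for Slit2th, or 1.60, 3.23 and 2.27 CPM against 1.76, 2.86 and 1.69 CPM. All of these lie near the floor, and its exons share 258 bases with the antisense gene A730056A06Rik, whose reads could not be told apart as the strand setting of the counting is not stated. The log2 fold change was -0.10 (standard error 0.72, 95% interval -1.72 to 1.52, adjusted p = 0.959 by edgeR's test). Per kilobase, Rgmb was 28.8-fold above Rgma on average and 16.8-fold to 47.0-fold above it within single libraries, so in both genotypes nearly all RGM reads were those of Rgmb.

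Among the receptors, Neo1 (ENSMUSG00000032340, minus strand of chromosome 9, 58874687 to 59036441) was the one with reads above the floor in all 6 libraries. The reads were 39, 19 and 16 for Slit2fl/fl against 10, 33 and 31 for Slit2th, or 12.5, 12.3 and 9.08 CPM against 8.80, 15.7 and 17.5 CPM. Slit2th replicates 2 and 3 were the highest of all libraries and Slit2th replicate 1 was the lowest, so the Slit2fl/fl libraries lay between them. The means were 11.3 ± 1.90 and 14.0 ± 4.58 CPM (SD, n = 3 each). The log2 fold change was 0.32 (standard error 0.45, 95% interval -0.69 to 1.33, adjusted p = 0.781 by edgeR's test). Leaving out single libraries moved it from 0.11 (without Slit2fl/fl replicate 3) to 0.55 (without Slit2th replicate 1), and it was 0.14 without Slit2th replicate 3. It was 0.62 without replicate 1 of both groups, with an adjusted p of 0.506 in the same kind of edgeR fit.

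Dcc (ENSMUSG00000060534, minus strand of chromosome 18, 71253634 to 72351069), the classical netrin-1 receptor of growing axons, had 2, 1 and 0 reads in Slit2fl/fl and 0, 1 and 5 reads in Slit2th. Only Slit2th replicate 3, at 2.82 CPM, was above the floor. Dcc reached 1 CPM in fewer than 3 libraries and was left out of the test, and at 9 reads in all no difference between the genotypes was detectable. Neo1 had 148 reads in the same 6 libraries over a shorter merged exon length (8716 against 13171 bases).

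Unc5b (ENSMUSG00000020099, minus strand of chromosome 10, 60762593 to 60831581), a netrin receptor best known from growing blood vessels, had 6, 0 and 0 reads in Slit2fl/fl and 0, 1 and 1 reads in Slit2th. It too was left out of the test, and Slit2fl/fl replicate 1, the most deeply sequenced library, was the only one above the floor. A count of 0 in the other Slit2fl/fl libraries allows up to 1.94 and 1.70 CPM in replicates 2 and 3, so this gene was at or near the limit of these libraries. Unc5c (ENSMUSG00000059921, plus strand of chromosome 3, 141465216 to 141834924) encodes the Unc5 receptor whose loss in mice misroutes cerebellar granule cells. It had 0, 8 and 2 reads in Slit2fl/fl and 5, 2 and 10 reads in Slit2th, with high and low libraries in each genotype. Its log2 fold change of 0.90 (standard error 1.2, 95% interval -1.80 to 3.60, adjusted p = 0.770 by edgeR's test) became 2.83 without Slit2fl/fl replicate 2 and 0.19 without Slit2fl/fl replicate 1. Its exons share 118 bases with the antisense gene Gm15688.

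**Figure D2:**
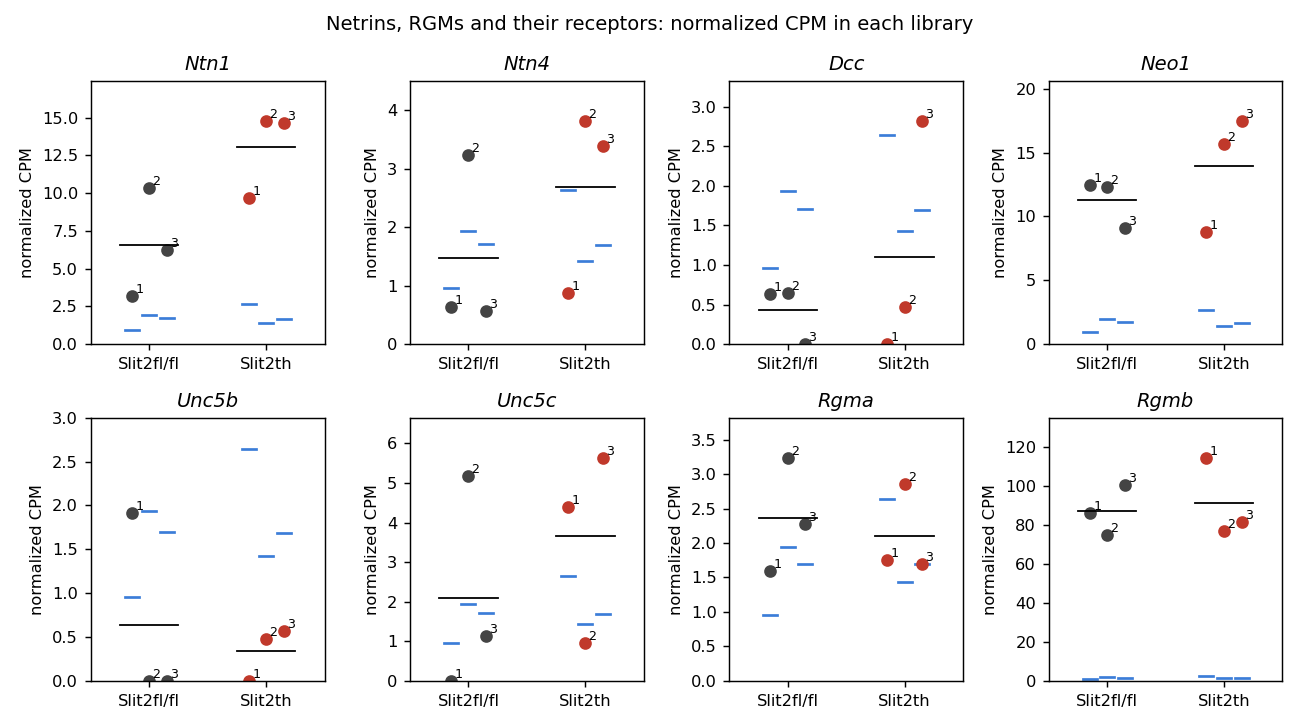
Normalized CPM of each of the 8 genes in the 3 Slit2fl/fl (grey) and 3 Slit2th (red) libraries, with the replicate number beside each point, the group mean as a black line and the level of 3 reads in each library as a blue tick. Rgmb lies far above the ticks in all libraries (75.1 to 114.4 CPM), Ntn1 and Neo1 lie above them, and Dcc and Unc5b exceed them in 1 library each.

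Of the 8 genes, 6 passed the filter of 1 CPM in at least 3 libraries and could be tested between the genotypes. Of these 6, 0 reached an adjusted p under 0.05 by edgeR's quasi-likelihood test, as did 0% of all 12152 tested genes (34 genes by DESeq2, none of them a member). Before adjustment 0 of the 6 had p under 0.05, where 10.8% of all tested genes did (3.99% higher and 6.78% lower in Slit2th). DESeq2 also gave 0 at either threshold. It gave no adjusted p for Ntn4, Unc5c and Rgma, so these could not pass its adjusted threshold. Limma-voom gave 0 after adjustment and 1 before it, Ntn1 (unadjusted p = 0.0474, log2 fold change 1.24), where 9.89% of all genes were under 0.05. The log2 fold changes were positive for 5 genes and negative for Rgma, where 47.8% of all tested genes were positive. Their median was 0.61, beside -0.05 over all tested genes. Of the 5, Ntn4 and Unc5c had 23 and 27 reads in all. The value of Rgmb (0.06) changed sign when libraries were left out. The groups did not overlap for 0 of the 6 genes, where 18.5% of all tested genes had no overlap in either direction (8.72% higher and 9.74% lower in Slit2th).

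Leaving out replicate 1 changed which groups overlapped. Without Slit2th replicate 1, the groups of Ntn1, Ntn4 and Neo1 no longer overlapped, 3 of 6 genes, as for 36.5% of all genes tested in these 5 libraries. Without replicate 1 of both groups the same 3 genes were without overlap, beside 48% of all tested genes. In that comparison of 2 libraries with 2, the log2 fold changes were 0.82 for Ntn1 (adjusted p = 0.413), 0.93 for Ntn4 (adjusted p = 0.649) and 0.62 for Neo1 by edgeR's test, so none of them passed, whereas Slit2 did (log2 fold change -1.90, adjusted p = 0.00689).

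**Figure D3:**
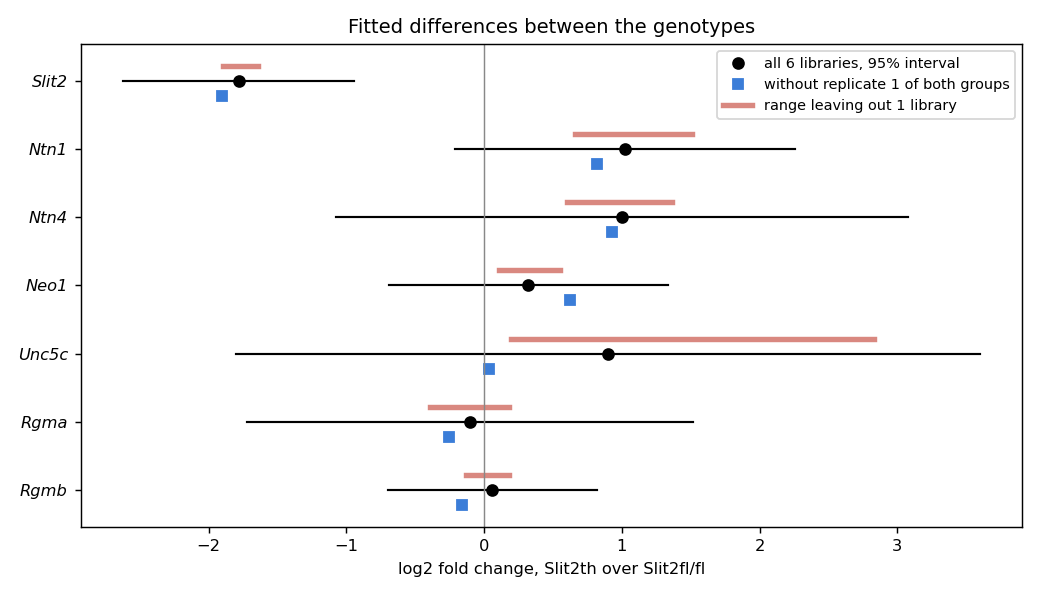
Log2 fold change of Slit2th over Slit2fl/fl for Slit2 and the 6 tested genes, as the value over all 6 libraries with its 95% interval (black), the value without replicate 1 of both groups (blue squares) and the range when each library was left out in turn (red bars). The interval of Slit2 lies wholly below 0, the intervals of all 6 genes include 0, and that of Rgmb is the shortest.

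The proportion of relatives within a library does not depend on how libraries are scaled. The log2 ratio of Ntn1 over Ntn4 counts (plus 0.5) averaged 2.2 ± 0.69 in Slit2fl/fl and 2.29 ± 0.57 in Slit2th (SD, n = 3 each, two-sided exact permutation test, p = 1). That of Rgma over Rgmb averaged -5.11 ± 0.63 and -5.24 ± 0.54 (SD, n = 3 each, two-sided exact permutation test, p = 0.70). These were the 2 ratios compared, with a smallest possible p of 0.10. Ntn4 had 23 reads in all and Rgma 25, so both ratios also depend on the added 0.5. The ratios of Neo1 over Dcc and of Unc5b over Unc5c were not compared, because Dcc and Unc5b had fewer than 10 reads in all.

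Levels of other cells' markers also differed between the libraries. The summed macrophage markers (9 genes, led by Lyz2) were 75.1, 59.5 and 23.3 CPM for Slit2fl/fl against 589.7, 103.3 and 118.9 CPM for Slit2th. The highest sum was thus that of Slit2th replicate 1 alone. The 7 tested markers had positive log2 fold changes (median 2.15). Of these, 4 had p under 0.05 before adjustment by edgeR's test, where 10.8% of all tested genes did. The glia markers (9 genes, led by S100b) were 4295 to 5001 and 4413 to 5043 CPM, with 3 of 8 tested positive. Within these sums, Cdh19 averaged 907.7 and 1765 CPM, and S100b 1906 and 1265 CPM. Mbp was at 1048 CPM in Slit2fl/fl replicate 1 and 88.0 to 137.6 CPM in the other libraries. Of the 8, 1 was under 0.05 before adjustment by edgeR's test. The fibroblast markers (9 genes, led by Col1a2) were 2445 to 3439 and 3271 to 4879 CPM, with 7 of 7 positive. Of these 7, 3 were under 0.05 before adjustment, beside the same 10.8%. Proliferation markers (6 genes, led by Top2a) ran the other way, at 271.2 to 339.6 CPM for Slit2fl/fl against 112.7 to 207.9 CPM for Slit2th. Of these 6, 2 were under 0.05 before adjustment by edgeR's test. Endothelial markers (6 genes, led by Emcn) were 18.7 to 31.3 and 12.3 to 19.1 CPM, and mural cell markers (6 genes, led by Pdgfrb) 66.4 to 163.8 and 45.2 to 199.8 CPM. Before adjustment, 1 of 3 tested endothelial and 0 of 5 tested mural cell markers were under 0.05. The 8 sensory neuron markers reported here, led by Calca, summed to 0 to 3.88 CPM, and Tac1, Scn10a, Pou4f1 and Prdm12 had no read in any library. The part of these differences in the levels of Ntn1, Ntn4 and Neo1 was not tested.

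Around the 8 genes, 51 further genes of the pathway were listed, of which 49 were in the table and 39 were tested. None passed the adjusted threshold by edgeR's test or by DESeq2, and before adjustment 4 of the 39 (10.3%) were under 0.05 by edgeR, 2 in each direction, beside the 10.8% of all genes. With DESeq2 this was 1 gene (2.56%, beside 9.92% of all genes). By edgeR it was 1 without Slit2fl/fl replicate 1 (2.56%, beside 7.42% of all genes). It was 0 without either of Slit2th replicates 2 and 3, beside 7.19% and 7.01% of all genes. Among the other ligands, the netrin-G gene Ntng1, which encodes a membrane-anchored relative that does not bind Dcc, and the Unc5 ligand gene Flrt3 were abundant. Ntng1 was at 203.1, 137.2 and 160.1 CPM for Slit2fl/fl against 238.5, 191.4 and 149.3 CPM for Slit2th (log2 fold change 0.21, adjusted p = 0.814 by edgeR's test). Flrt3 was at 283.9, 579.7 and 517.7 CPM for Slit2fl/fl against 617.0, 689.0 and 710.3 CPM for Slit2th. Its groups thus did not overlap (log2 fold change 0.55, adjusted p = 0.560 by the same edgeR test). This held for 10 of the 39 tested pathway genes (25.6%), beside 18.5% of all tested genes. Ntn3, Mcam, Maged1, Nck1, Dapk1 and Rhoa were also among these 10. The ligands on this list were thus not all scarce, although the diffusible netrins on it were. Ntn3, another secreted netrin, had 5, 2 and 1 reads in Slit2fl/fl and 4, 5 and 6 reads in Slit2th, near the floor of 3 reads. Normalized, this was 1.60, 1.29 and 0.568 CPM against 3.52, 2.38 and 3.38 CPM. The log2 fold change was 1.31 (standard error 0.74, adjusted p = 0.517 by edgeR's test). DESeq2 gave no adjusted p for Ntn3.

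Of 7 other receptors, 3 were tested, and Unc5a, Unc5d, Dscam and Dscaml1 were too scarce. Mcam, an adhesion receptor reported to bind netrin-1, was the most abundant at 120.7, 260.1 and 135.7 CPM for Slit2fl/fl against 290.5, 276.6 and 368.4 CPM for Slit2th, and its fitted log2 difference was 0.86 (standard error 0.39, adjusted p = 0.469 by edgeR's test). Among 10 kinases and adaptors that act at Dcc or Unc5 receptors, 3 had an unadjusted p under 0.05. Maged1, which encodes a death-related adaptor that binds Unc5 receptors, had 262.2, 82.8 and 76.6 CPM for Slit2fl/fl against 72.2, 59.0 and 57.5 CPM for Slit2th (log2 fold change -1.16, standard error 0.51). This value was -0.34 without Slit2fl/fl replicate 1. Nck1, an adaptor that binds Dcc, differed by 0.96 on the log2 scale in the fit (standard error 0.41), and Dapk1, a kinase in Unc5-dependent cell death, had 1.05 (standard error 0.45). The adjusted p was 0.462 for Maged1 and 0.459 for Nck1 and Dapk1 by edgeR's test, so these 3 did not pass it.

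Among 14 small GTPases of the cytoskeleton, their regulators and actin proteins, 1 had an unadjusted p under 0.05. This was Rhoa, the GTPase through which RGMs act on the cytoskeleton, at 149.1, 92.5 and 118.6 CPM for Slit2fl/fl against 85.4, 56.7 and 65.9 CPM for Slit2th (log2 fold change -0.80, standard error 0.35, adjusted p = 0.462 by edgeR's test). Its unadjusted p by that test was 0.049, and 0.063 with RLE size factors. It was 0.090 with DESeq2 and 0.042 with limma-voom. Of 10 genes of RGM processing and BMP partners, 7 were tested and 0 had an unadjusted p under 0.05. Bmpr1a, a type I BMP receptor and the most abundant of them, had 380.4, 317.0 and 287.2 CPM for Slit2fl/fl against 222.7, 314.7 and 308.1 CPM for Slit2th (log2 fold change -0.22, adjusted p = 0.792 by edgeR's test), and its sign was positive (0.03) without replicate 1 of both groups. The medians of the 5 lists were 0.49, 0.74, 0.09, 0.15 and 0.28 in the order given, beside -0.05 for all genes.

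**Figure D4:**
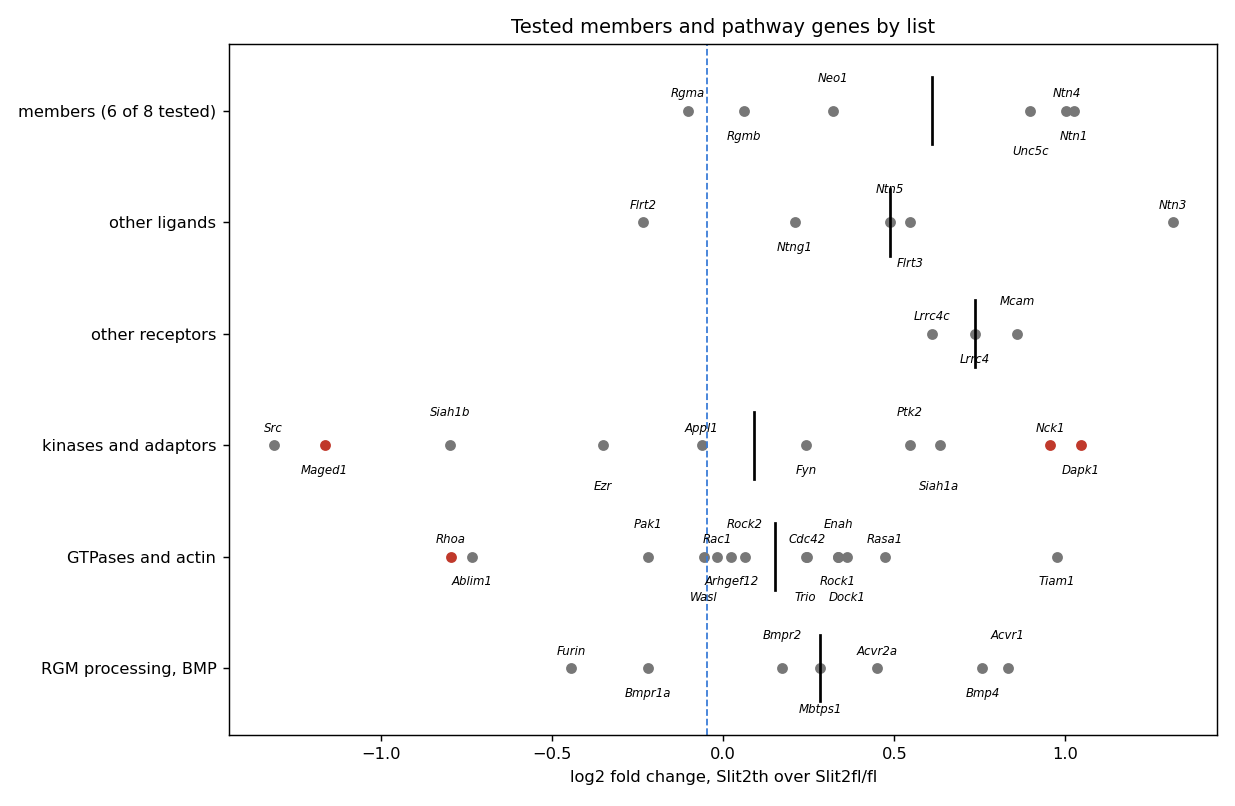
Log2 fold change of Slit2th over Slit2fl/fl for each tested gene of the set (6 genes) and of the 5 pathway lists (39 genes), with list medians as black bars and the median of all tested genes (-0.05) as a dashed blue line. Red points mark an unadjusted p under 0.05, which only Maged1, Nck1, Dapk1 and Rhoa had.

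For each of the 6 tested genes, the gene most alike over the 6 libraries by Pearson's r of log2 CPM is given as a description. It was Ndufb1-ps for Ntn1 (r = 0.998), Slitrk1 for Ntn4 (r = 0.991), Lrrc4b for Neo1 (r = 0.994), Grsf1 for Unc5c (r = 0.990), 9230105E05Rik for Rgma (r = 0.992) and Iars for Rgmb (r = 0.992). With 6 libraries such values are common: r was above 0.95 with 293 genes for Ntn1 and with 8 genes for Rgma.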

How the data were processed

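RNA was sequenced in 3 Slit2fl/fl and 3 Slit2th libraries from cultured cells. By the study's methods, the authors prepared Illumina TruSeq libraries and aligned reads to mm10 with HISAT2, whereas the submitters' processing notes name GRCm39. The authors deposited whole-number read counts per gene, without normalization. The counting program, strand setting and annotation release are not given in the sources used here. Gene positions and merged exon lengths were joined by identifier from GENCODE M21 (GRCm38, 20159 of 20173 identifiers found), so coordinates are those of GRCm38 whichever build was counted.

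From these counts, edgeR 4.0.16 (R 4.3.3) was used throughout. Genes with at least 1 CPM in at least 3 libraries were kept, normalized by TMM and tested by quasi-likelihood with genotype as the only term, and p-values were adjusted by Benjamini-Hochberg over 12152 genes at a threshold of 0.05. Log2 CPM used a prior count of 2. Totals of 1255939 to 3155406 reads limit genes under about 10 reads per library. For single genes and ratios, exact permutation tests (two-sided) were run on log2 values.

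The 8 genes, the pathway and marker lists and the naming rule were chosen with earlier results of these data known. The rule named the 8 genes, Slit2, and from each pathway list the gene with the largest change at an unadjusted p under 0.05, or else the highest level, from each marker list the highest gene, and for each tested member the gene most correlated with it. Ntn3, Ntng1, Nck1 and Dapk1 were named after their values were seen. Alternatives were DESeq2 1.42.0, limma 3.58.1 (voom), other normalizations and filters, a replicate block, and leaving out libraries. Genes listed but not in the table were not analysed here. From the marker lists, 1 glia and 1 sensory neuron gene are not reported here, and sums and counts leave them out.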

Additional observations from a re-analysis of the deposited data

How the results depend on the processing

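The number of members past the adjusted threshold was 0 in every setting tried, though DESeq2 gave no adjusted p for Ntn4, Unc5c and Rgma. The number with an unadjusted p under 0.05 was 0 except for 1 (Ntn1) with limma-voom, beside 9.89% of all genes. It was 0 to 1 when single libraries were left out (1 without Slit2fl/fl replicate 2, again Ntn1, beside 13.9% of all genes). Members without overlap between the groups were 0, but 1 with RLE size factors (Ntn1), beside 18.8% of all genes. With single libraries left out they were 0 to 3, beside 24.8% to 36.5% of all genes. Without replicate 1 of both groups they were 3, beside 48% of all genes. Over all genes, 0 passed the adjusted threshold, but 7 without a filter on low counts, 34 with DESeq2, 0 to 1 with single libraries left out (1 without Slit2fl/fl replicate 1) and 377 without replicate 1 of both groups. Pathway genes with an unadjusted p under 0.05 were 4 of 39 (10.3%), beside 10.8% of all genes. They were also 4 without a filter (8.51%, beside 10.6%) and with limma-voom (10.3%, beside 9.89%). RLE size factors gave 3 (7.69%, beside 10.6%), as did library totals only (7.69%, beside 10.5%). The filter in all 6 libraries also gave 3 (9.09%, beside 11.4%). The replicate block gave 6 (15.4%, beside 13.3%) and DESeq2 gave 1 (2.56%, beside 9.92%). With single libraries left out they were 0 to 4. There was 1 without Slit2fl/fl replicate 1, beside 7.42% of all genes. There were 0 without Slit2th replicate 2 or 3, beside 7.19% and 7.01%. Without replicate 1 of both groups there were 7 of 39 (17.9%), beside 17.4% of all genes.

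Ntn1, Ntn4, Neo1 and Unc5c stayed positive in each setting that tested them (Ntn1 0.66 to 1.51, Ntn4 0.60 to 1.37, Neo1 0.11 to 0.62, Unc5c 0.03 to 2.83). Rgma and Rgmb changed sign: Rgma was 0.0165 with limma-voom and -0.39 to 0.18 with single libraries left out, and Rgmb was -0.13 to 0.18 with single libraries left out and -0.16 without replicate 1 of both groups, where Bmpr1a was 0.0301. The ratio difference of Ntn1 over Ntn4 (0.09) was -0.24 to 0.46 with single libraries left out and -0.30 without replicate 1 of both groups. That of Rgma over Rgmb (-0.13) was -0.43 to 0.22 with single libraries left out. With 2 added to the counts in place of 0.5, the differences were 0.19 and -0.0085. The cause was not tested. With 5 of 6 or fewer libraries, fewer genes passed the filter.

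The labels' descriptions number the libraries 1 to 3 in each genotype, without saying what a number shares. Deviations from the group means correlated at 0.292, 0.245 and 0.0808 between same-numbered libraries, and at -0.312 to 0.255 between the others. Slit2fl/fl replicates 1 and 3 correlated best with the Slit2th library of their number, and replicate 2 with Slit2th replicate 3 (0.255). The numbers were not taken to pair the libraries. A fit with the replicate block left 0 genes under 0.05 after adjustment (1614 unadjusted), and the log2 fold change of Ntn1 was 1.07 (adjusted p = 0.399, edgeR), of Ntn4 0.94, of Neo1 0.28, of Unc5c 1.22, of Rgma -0.16 and of Rgmb 0.05.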
